A study of Mus musculus with 93 samples.

Results

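Retinoids, the vitamin A compounds, are taken up, stored and turned into retinoic acid by a chain of dedicated proteins, and 8 mouse genes of that chain were followed here in single lung cells. Lrat makes retinyl esters, Adh1 and Rdh10 oxidise retinol to retinal, Aldh1a1 and Aldh1a2 oxidise retinal to retinoic acid, Rbp4 carries retinol in blood, Stra6 takes it up from Rbp4, and Crabp1 binds retinoic acid inside the cell. They were taken by gene symbol from both deposited tables, and 6 of the 8 held values among 21284 genes used. The rows of Rbp4 and Stra6 held no numbers, so the blood carrier and its receptor are not analysed here.

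Retinol that enters a cell is either esterified for storage, mainly by Lrat, or oxidised, first to retinal and then, irreversibly, to retinoic acid. Retinoic acid binds nuclear receptors and is broken down by Cyp26 enzymes. Stellate cells of the liver are the best known storage cells of the body, lipid-bearing fibroblasts of the lung are also known to hold retinyl esters, and retinoic acid made by Aldh1a2 is needed for the lung bud to form in the mouse embryo.

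The cells came from lungs of adult C57BL/6 mice that carry Tbx4cre, in which Cre follows the lung mesenchyme gene Tbx4, and RosaTm, a Rosa26 reporter allele; both groups carry both alleles. By their labels 54 libraries were lineage+ (cells that carry the heritable Tbx4 Cre mark) and 39 lineage-, with single cells captured by the Fluidigm C1 system. The gate given in the labels is Epcam+, CD31-, CD45- and 7AAD-, while the series design speaks of mesenchymal cells; Epcam was detected in 1 of 50 kept lineage+ cells and in 12 of 34 kept lineage- cells, and genes of immune cells were found in lineage- wells. The row of Tbx4 itself held no numbers, which leaves the sorting unchecked at that gene. No label says which animal or chip a cell came from, but library names start with 7m-Lung in all lineage+ and Tbx4-2 in all lineage- libraries, with no meaning stated, and the same chip positions recur in both groups. Each group therefore counts as 1 sample; lineage and any difference in animal, chip or handling cannot be told apart, cells are not replicates, and no p-value was made.

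Values are FPKM, fragments per kilobase of transcript per 1000000 mapped reads, and a gene is called detected in a cell at 1 FPKM or more. After 2 pairs of lineage+ libraries with nearly the same profile (r = 0.996 and 0.997; the next highest of 4278 pairs was 0.596) were averaged, 50 lineage+ and 34 lineage- cells passed a minimum of 1000 detected genes. Median depth, estimated from the steps of low values, was 6780000 reads in lineage+ and 7600000 in lineage- cells, but 6 lineage- cells lay under 2000000 and none of the lineage+ cells did; 5 of the 6 were epithelial-like. The kept lineage+ cells fell into 40 fibroblast-like and 10 mesothelial-like cells, and the lineage- cells into 19 epithelial-like, 11 immune-like, 3 fibroblast-like and 1 mesothelial-like cell. Mesothelium is the sheet that covers the lung; the retinoid genes were left out when cells were clustered. The summed level of 10 measured mesothelial markers ranged from 980 to 6278 FPKM in the 10 mesothelial-like cells and from 0 to 685 FPKM in the other 40 lineage+ cells.

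The 250 bases before the annotated start of Lrat and of Aldh1a2 are shown because these genes stand for storage and synthesis and were detected in largely different lineage+ cells. Both are from RefSeq on GRCm38.p6 and read 5′ to 3′ on the gene's strand. Lrat lies at chr3:82903975-82904224 on the minus strand and Aldh1a2 at chr9:71215539-71215788 on the plus strand. Several motifs were searched on both strands. A half-site of retinoic acid receptors was spelled AGGTCA. Its variant form was spelled AGTTCA. The TATA box was spelled TATAAA. The GC box was spelled GGGCGG. A site of T-box factors was spelled AGGTGTGA. The E-box was spelled CAGCTG. Capitals mark the 1 match in these windows, which lies in Lrat.
Lrat: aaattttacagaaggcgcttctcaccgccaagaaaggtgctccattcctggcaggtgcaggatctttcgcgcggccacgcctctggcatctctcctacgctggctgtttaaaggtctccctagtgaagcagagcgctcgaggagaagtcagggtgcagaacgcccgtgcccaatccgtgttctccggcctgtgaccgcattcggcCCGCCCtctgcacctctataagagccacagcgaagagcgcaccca
Aldh1a2: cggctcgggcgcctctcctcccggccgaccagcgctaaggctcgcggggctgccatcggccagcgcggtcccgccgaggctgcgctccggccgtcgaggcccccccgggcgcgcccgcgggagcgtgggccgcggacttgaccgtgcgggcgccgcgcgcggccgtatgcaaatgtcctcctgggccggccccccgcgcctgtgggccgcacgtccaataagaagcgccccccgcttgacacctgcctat
The match is the GC box on the opposite strand, 45 bases before the Lrat start, a motif that 32.7% of all 32851 windows of this length hold. Of all windows 14.0% hold the half-site and 11.8% its variant. The TATA box letters are held by 12.4%, the T-box letters by 1.12% and the E-box by 13.0%. The windows of other members also hold some of these motifs, for example Adh1 an E-box, Aldh1a1 the T-box letters, Crabp1 a GC box, and Stra6 both the GC box and the E-box. The Aldh1a2 window is 77.6% G and C, which 2.14% of all windows exceed, and the Lrat window 59.2%, against a median of 52.4%. RefSeq windows were found for 7 of the 8 genes and not for Rdh10. A match or its absence says nothing of binding.

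Storage: Lrat (GRCm38, chromosome 3, 82892582 to 82903974) was detected in 23 of 50 lineage+ cells, or 46% (exact 95% interval 31.8% to 60.7%, which covers counting over cells only). In lineage+ cells it ranged from 0 over a median of 0.434 to 325 FPKM in cell 14, with a mean of 36.1 FPKM. In lineage- cells it ranged from 0 over a median of 0 to 0.0230 FPKM, with 32 of 34 cells at 0 and the remaining 2 at about 1 read each. So no lineage- cell passed the detection threshold, which over 34 cells allows a share of up to 8.82%. In its 23 cells the median was 68.3 FPKM, and the depth of lineage+ cells put 1 read of Lrat at 0.0182 to 0.0760 FPKM, far under the threshold.

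The log2 ratio of mean Lrat FPKM, lineage+ over lineage-, was 5.21 after 1 FPKM was added to both means; with a lineage- mean this close to 0 it depends on what is added and is no bound. In 2 of the 34 lineage- cells 1 read of Lrat would be worth more than 1 FPKM, so a zero there says little. Lrat shares no 75-base stretch, the read length, with another annotated gene. Lrat was detected in none of the 11 immune-like and none of the 19 epithelial-like cells. It was also not detected in the 3 fibroblast-like lineage- cells (exact interval 0% to 70.8%) or in the 1 mesothelial-like lineage- cell. With so few lineage- cells of these classes, lineage and cell class cannot be told apart for Lrat.

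Within lineage+ cells Lrat was detected in 20 of 40 fibroblast-like cells (50%, interval 33.8% to 66.2%) and in 3 of 10 mesothelial-like cells (30%, interval 6.67% to 65.2%). These intervals overlap widely. As classes made from these cells were compared, all differences between them are descriptions. The fibroblast-like cells had a mean of 42.1 FPKM and a highest value of 325, and the mesothelial-like cells a mean of 12.3 and a highest value of 88.1 in cell 51, which alone held 71.7% of their sum. The log2 ratio of means, mesothelial-like over other lineage+, was -1.70. The 40 cells belonged to 2 clusters: Lrat was detected in 16 of the 29 cells of the first and in 4 of the 11 of the second, whose cells had fewer detected genes (a median of 1473 against 2479). The part of depth or cell quality in that difference was not tested.

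**Figure D1:**
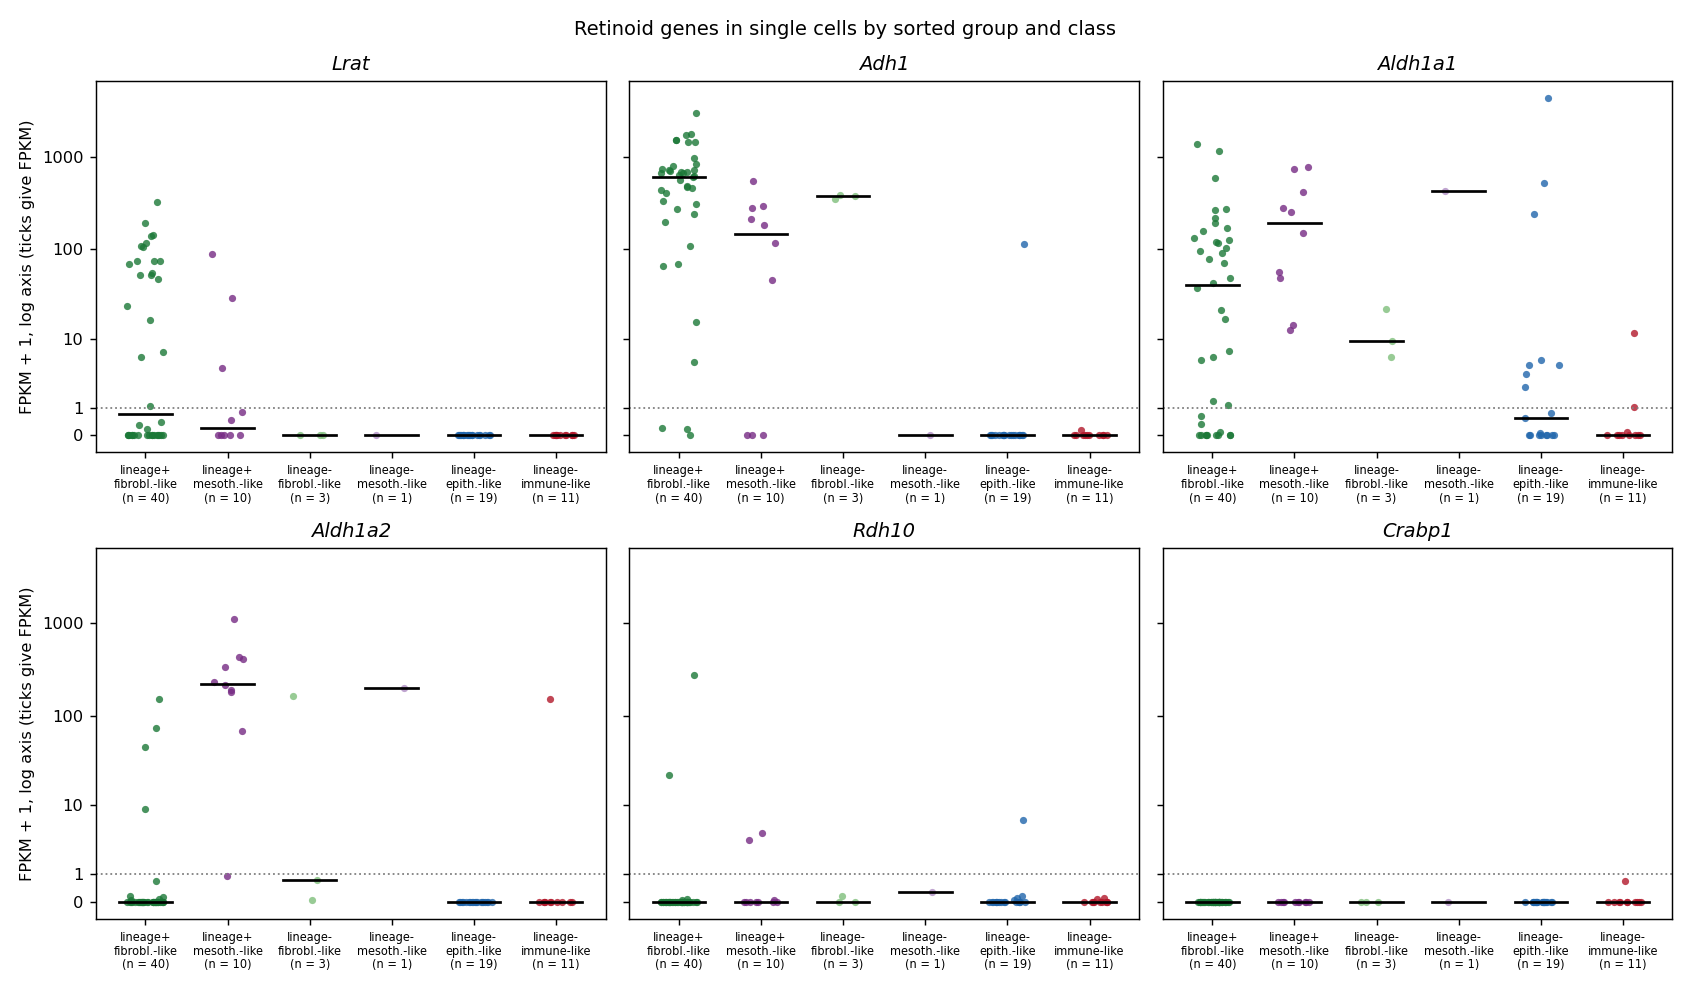
Level of 6 retinoid genes in each kept cell (points; FPKM + 1 on a log axis, ticks in FPKM) by sorted group and class, with the class median as a bar and the detection threshold of 1 FPKM as a dotted line. Lrat points above the line lie in lineage+ classes only among these cells (23 cells), Aldh1a2 is above it in 9 of 10 mesothelial-like and 4 of 40 fibroblast-like lineage+ cells, and Crabp1 in none.

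Retinol to retinal: Adh1 (chromosome 3, 138277645 to 138290691), a cytosolic alcohol dehydrogenase, had the highest mean of the 6 genes in lineage+ cells, 569 FPKM, on a scale that divides by transcript length. It was detected in 44 of 50 lineage+ cells (88%, interval 75.7% to 95.5%), with a lowest value of 0, a median of 467 and a highest of 2987 FPKM in cell 52. In lineage- cells it was detected in 4 of 34 (11.8%, interval 3.30% to 27.5%), with a median of 0 and a mean of 36.1 FPKM. Of these 4 cells, 3 were the fibroblast-like lineage- cells 4, 10 and 20, at 347, 386 and 379 FPKM, values inside the lineage+ range. The fourth was the epithelial-like cell 1 at 115 FPKM, and no immune-like cell passed the threshold. Cell 1 held the epithelial gene Sftpc at 128844 FPKM. It was also the only epithelial-like cell with Lum (296 FPKM) or Cygb (111 FPKM), genes of the stellate-cell list below. Whether this well held RNA of more than 1 cell was not tested. The log2 ratio of means, lineage+ over lineage-, was 3.94, and it ran from 2.70 with cells of at least 2000 genes, where 33.3% of lineage- cells had Adh1, to 7.15 with fibroblast-like lineage+ against lineage- cells of other classes.

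Adh1 was detected in 37 of 40 fibroblast-like lineage+ cells, with a median of 608 FPKM, and in 7 of 10 mesothelial-like cells, with a median of 149 FPKM. The highest mesothelial-like value, 549 FPKM in cell 26, lay below the fibroblast-like median, and the log2 ratio of means, mesothelial-like over other, was -1.99. The ranges of both classes overlap, since fibroblast-like cells 25, 9, 39, 4 and 14 stood at 0, 0.161, 0.205, 5.13 and 15.6 FPKM. Cell 14, the highest for Lrat, was thus among the lowest of its class for Adh1, and it had 1342 detected genes. Only 0.808% of the 75-base stretches of Adh1 transcripts occur in another annotated gene.

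Rdh10 (chromosome 1, 16105882 to 16132550), the membrane-bound retinol dehydrogenase on which retinoic acid supply depends in the mouse embryo, was rare. It was detected in 4 of 50 lineage+ cells (8%, interval 2.22% to 19.2%) and in 1 of 34 lineage- cells, at 6.73 FPKM. The 4 values were 280 FPKM in the fibroblast-like cell 22, 22.1 in the fibroblast-like cell 3, and 4.50 and 3.62 in the mesothelial-like cells 8 and 48. Cell 22 held 90.2% of the lineage+ sum, so the lineage+ mean of 6.21 FPKM describes that cell, as does the fibroblast-like mean of 7.56 against 0.818 FPKM in mesothelial-like cells (log2 ratio -2.23).

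Retinal to retinoic acid: Aldh1a2 (chromosome 9, 71215789 to 71296243) was detected in 13 of 50 lineage+ cells (26%, interval 14.6% to 40.3%), ranging from 0 over a median of 0 to 1107 FPKM in cell 27, with a mean of 69.3 FPKM. In lineage- cells it was detected in 3 of 34 (8.82%, interval 1.86% to 23.7%), with a mean of 15.1 FPKM. Those 3 were the mesothelial-like cell 15 at 199 FPKM, the fibroblast-like cell 4 at 163 and the immune-like cell 12 at 151, and the 19 epithelial-like cells all stood at 0. The log2 ratio of means, lineage+ over lineage-, was 2.12, and 6.13 against the epithelial-like lineage- cells alone. Fibroblast-like lineage+ cells set against the pooled lineage- cells of other classes gave -0.61, which is within 2-fold. The lineage- mean in that comparison came from cells 15 and 12 alone.

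By class, Aldh1a2 was detected in 9 of 10 mesothelial-like lineage+ cells (90%, interval 55.5% to 99.7%) and in 4 of 40 fibroblast-like ones (10%, interval 2.79% to 23.7%). The intervals cover counting over cells only, and the comparison describes classes made from these cells. The mesothelial-like cells ranged from 0.934 FPKM in cell 6 over a median of 224 to 1107 FPKM, with a mean of 318. The fibroblast-like cells ranged from 0 over a median of 0 to 152 FPKM, with a mean of 7.04. The log2 ratio of means was 5.31. All but 2 of the mesothelial-like cells lay above the highest fibroblast-like cell. The mesothelial-like cells had a median of 6370000 reads and 2920.5 detected genes, the others 6810000 reads and 2378 genes, and the part of this in the difference was not tested.

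The 4 fibroblast-like cells with Aldh1a2 were cell 44 at 152 FPKM, cell 12 at 73.5, cell 3 at 45.8 and cell 40 at 9.05. In all 4 the mesothelial markers Msln and Upk3b stood at 0. Of 10 mesothelial markers, cell 3 showed 0, cell 12 showed 2, and cells 40 and 44 showed 1 each. The summed mesothelial level ran from 0 in cell 3 to 685 FPKM in cell 40, the highest of the 40 fibroblast-like cells. In these 4 cells 7 or 8 of 8 general fibroblast markers were detected, as also in mesothelial-like cells 7, 8, 19, 26 and 51. The lineage- cell 12 showed 9 of 9 measured immune markers, 1 of 8 fibroblast markers and none of 10 mesothelial markers. The lineage- cell 15, in contrast, showed 9 of 10 mesothelial markers, with Msln at 805 and Upk3b at 776 FPKM. Whether single wells held RNA of more than 1 cell was not tested; among the mesothelial-like cells, 5 of 10 also showed the fibroblast gene Tcf21, at 221 (cell 51), 194 (cell 26), 28.8 (cell 7), 6.15 (cell 19) and 3.24 FPKM (cell 8).

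Aldh1a1 (chromosome 19, 20601982 to 20643462) had equal means in both groups, 165 FPKM in lineage+ and 163 in lineage-, with a log2 ratio of 0.01. The distributions differ: it was detected in 38 of 50 lineage+ cells (76%, interval 61.8% to 86.9%) with a median of 52.8 and a highest value of 1381 FPKM, and in 14 of 34 lineage- cells (41.2%, interval 24.6% to 59.3%) with a median of 0.0710 FPKM. One lineage- library, cell 23, whose label names debris, stood at 4293 FPKM and held 77.3% of the lineage- sum. Without it the lineage- mean was 38.3 FPKM and the log2 ratio 2.08. The next highest lineage- cells were the epithelial-like cell 31 at 525, the mesothelial-like cell 15 at 426 and the epithelial-like cell 21 at 240 FPKM.

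All 10 mesothelial-like lineage+ cells had Aldh1a1, from 12.7 over a median of 201 to 775 FPKM, against 28 of 40 fibroblast-like cells (70%, interval 53.5% to 83.4%), from 0 over a median of 40.4 to 1381 FPKM. The log2 ratio of means, mesothelial-like over other, was 0.98, just under the 2-fold mark. Fibroblast-like cells 53 and 46, at 1381 and 1149 FPKM, stood above every mesothelial-like cell. Its paralog Aldh1a7 shares 1.01% of the 75-base stretches of Aldh1a1, and in the 20 lineage+ cells with more than 100 FPKM of Aldh1a1 its level was at most 1.88% of that of Aldh1a1, and reads from the shared stretches cannot be told apart. In the lineage- cells 38, 17 and 1 the order was reversed, with Aldh1a7 at 351, 338 and 195 FPKM and Aldh1a1 at 4.77, 0 and 2.36 FPKM; cell 17 is one of the shallow cells.

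Carrier: Crabp1 (chromosome 9, 54764808 to 54773109) was at 0 in all 50 lineage+ cells, which allows a share of up to 6% of cells, and reached 0.692 FPKM, an estimated 1.39 reads, in 1 lineage- cell. A read of its short transcript was worth a median of 0.184 FPKM in lineage+ cells.

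A detection filter (10% of cells in 1 group or more) was passed by 4 members, of which 3 (Lrat, Adh1 and Aldh1a2) had a lineage+ mean higher by 2-fold or more and none a lower one. Over all 7587 genes that passed, 29.7% were at least 2-fold higher and 23.4% at least 2-fold lower, with a median log2 ratio of 0.15. Lrat passed through the lineage+ group alone, as did Aldh1a2, so their direction was partly set by the filter and the count supports nothing further. In the mesothelial-like comparison 1 of 5 members (Aldh1a2) was at least 2-fold higher and 3 (Lrat, Adh1 and Rdh10) at least 2-fold lower. The background there was 27.4% higher and 25.7% lower among 8813 genes, with a median of 0.09. The call for Rdh10 rests on fibroblast-like cell 22.

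Storage and synthesis genes were then read together in each lineage+ cell. Among fibroblast-like cells none of the 20 with Lrat had Aldh1a2, while 4 of the 20 without Lrat had it. With Aldh1a2 in only 4 of these 40 cells, that is too few to say whether the 2 genes avoid each other. Among mesothelial-like cells all 3 with Lrat (cells 19, 48 and 51) had Aldh1a2, and so did 6 of the other 7. Cells 19 and 51 also showed Tcf21 and 8 of 8 general fibroblast markers, as did cell 7, which had no Lrat. Cell 48 showed 6 of 8 and had Tcf21 under the threshold. Whether these wells held RNA of more than 1 cell was not tested. Over all lineage+ cells 3 had both, 20 had Lrat without Aldh1a2, 10 had Aldh1a2 without Lrat, and 17 had neither. With any value above 0 counted as detected, 8 cells had both.

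Rdh10 was detected in none of the 20 fibroblast-like cells with Lrat and in 2 of the 20 without, too few cells to compare with Aldh1a2. Adh1 was detected in 22 of the 23 lineage+ cells with Lrat and in 22 of the 27 without, with medians of 631 and 272 FPKM. Aldh1a1 was detected in 20 of the 23 and 18 of the 27, with medians of 48.9 and 56.6 FPKM. Within fibroblast-like cells it was found in 17 of 20 with Lrat and 11 of 20 without, with medians of 46.0 and 6.31 FPKM, while all 10 mesothelial-like cells had it. The commonest combination in fibroblast-like cells was Lrat, Adh1 and Aldh1a1 without Aldh1a2, in 17 of 40, followed by Adh1 and Aldh1a1 in 8 and Adh1 alone in 6. In mesothelial-like cells it was Adh1, Aldh1a1 and Aldh1a2 without Lrat, in 4 of 10, and 3 held all 4 genes. Of the lineage- cells, 11 of 19 epithelial-like and 8 of 11 immune-like cells held none of the 4.

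**Figure D2:**
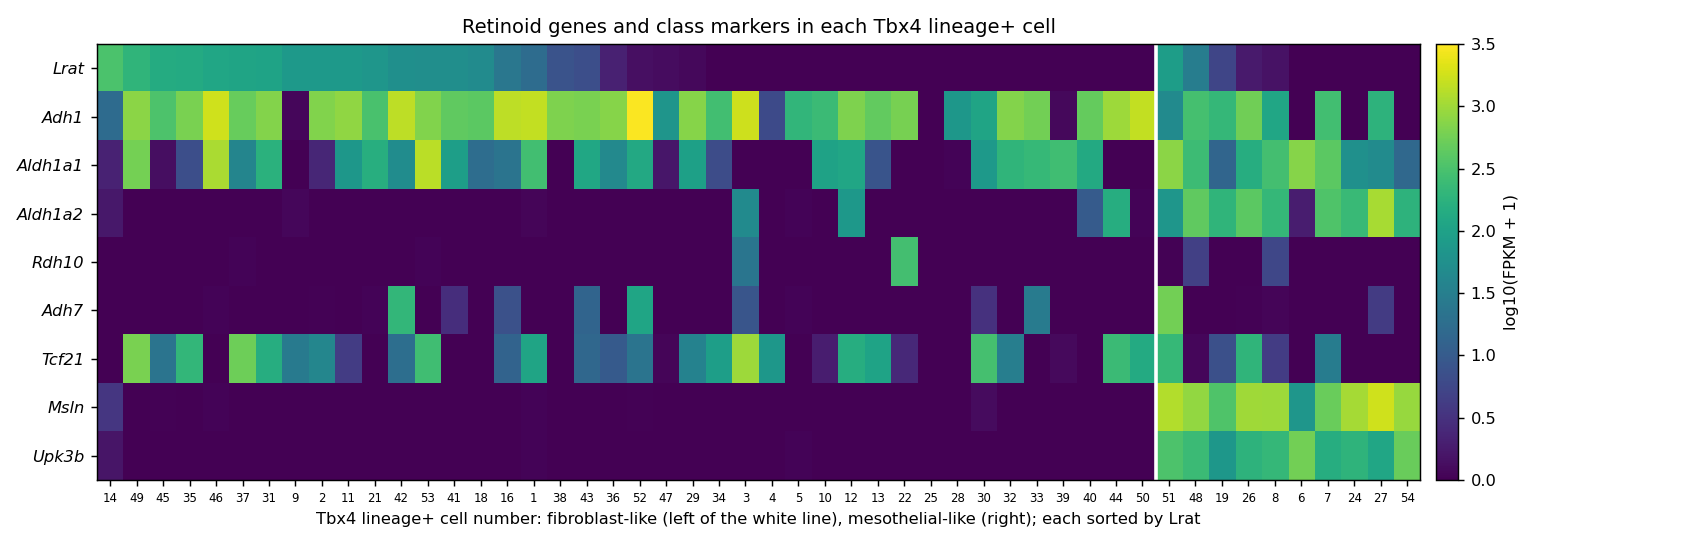
Level (log10 of FPKM + 1, colour) of 5 retinoid members, Adh7 and 3 class markers in each of 50 lineage+ cells, ordered within class by Lrat. Adh1 runs across most cells of both classes, Lrat fills the left side of the fibroblast-like block, and Aldh1a2 the mesothelial-like block together with Msln and Upk3b.

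**Figure D3:**
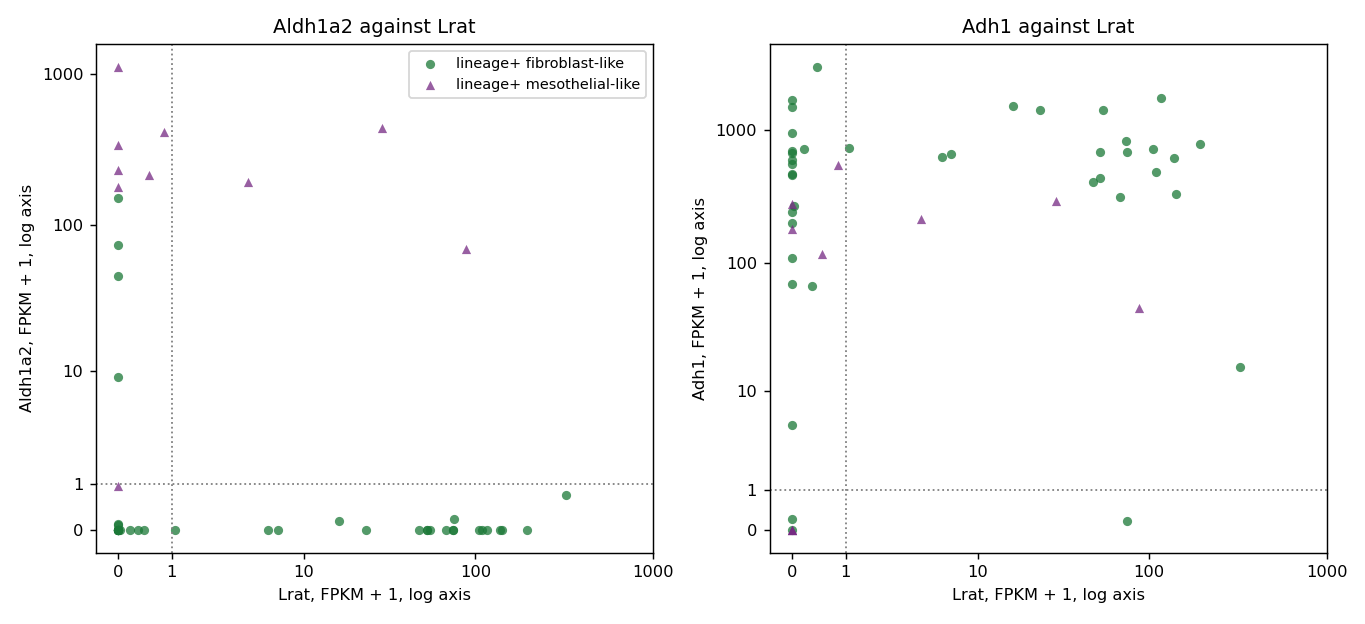
Aldh1a2 (left) and Adh1 (right) against Lrat in 40 fibroblast-like (circles) and 10 mesothelial-like (triangles) lineage+ cells, each axis FPKM + 1 on a log scale with the 1 FPKM threshold dotted; cells at 0 lie on top of each other. The 3 cells above both thresholds on the left are mesothelial-like, whereas on the right 22 cells are above both.

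The genes whose levels followed each member most closely over the 50 lineage+ cells were ranked by Spearman's rho among 4057 genes found in 20% of them or more, as a description. For Lrat they were Bub3 (0.56), Bmp3 (0.51), C7 (0.49), Ubl3 (0.48) and G0s2 (0.48). For Adh1 they were Inmt (0.58), Acyp2 (0.53), Pcolce2 (0.50), Slc43a3 (0.50) and Lrp4 (0.49). For Aldh1a1 they were its paralog Aldh1a7 (0.77), which has 1.01% of the 75-base stretches of Aldh1a1 in common with it, then Cox4i1 (0.54), Tufm (0.48), Slc36a2 (0.47) and 2010003O02Rik (0.46). For Aldh1a2 they were Upk3b (0.80), Slc16a1 (0.77), Slc9a3r1 (0.77), Cpe (0.75) and Sfrp2 (0.74), of which Upk3b and Cpe are on the mesothelial marker list. These cells share a library group but not a class. Upk3b was detected in the mesothelial-like cells and in none of the fibroblast-like ones, so its rho with Aldh1a2 mixes the classes. Within the 40 fibroblast-like cells that rho was 0.47, on values of both genes under the threshold. Upk3b was above 0 there only in cells 1, 5 and 14, at 0.0743, 0.0931 and 0.572 FPKM. Aldh1a2 in those cells was 0.132, 0.0828 and 0.678 FPKM. The 4 fibroblast-like cells with Aldh1a2 detected had Upk3b at 0, so this rho says nothing of detected Aldh1a2. For the 5 genes named for Aldh1a2, rho within fibroblast-like cells ran from 0.14 (Sfrp2) to 0.48 (Slc16a1). Between members, rho was -0.25 for Lrat and Aldh1a2, 0.26 for Lrat and Adh1, and 0.12 for Adh1 and Aldh1a1. Within the 40 fibroblast-like cells these were -0.21, 0.17 and 0.31.

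The rest of the pathway was read from lists that were chosen with earlier results known. Passing the filter through 1 group alone means a larger detected share in that group, but not always a higher mean. Counts over a list are therefore descriptions, to be read beside the 29.7% higher and 23.4% lower over all genes. Many means were carried by 1 cell, and the mean without that cell is given where it changes most. Of 9 carrier genes reported 2 passed the detection filter. Fabp5, which can carry retinoic acid, was lower in lineage+ cells (7.42 against 412 FPKM, log2 ratio -5.62); the shallow cell 34 held 50.8% of the lineage- sum and cell 54 held 58.7% of the lineage+ sum, and without them the means were 3.12 and 209 FPKM. Lrp2, an endocytic receptor, was detected in 7 of 10 mesothelial-like and none of 40 fibroblast-like lineage+ cells.

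Of 11 measured genes for ester storage and release 7 passed the detection filter: 2 had a higher mean in lineage+ cells (Lrat and Lipa, the lysosomal acid lipase, log2 ratio 1.43), 1 a lower one (Lpl, lipoprotein lipase, -1.63), and 4 lay within 2-fold, with a list median of -0.29. Dgat1, which can also esterify retinol, was detected in 15 lineage+ and 2 lineage- cells at means of 6.58 and 11.0 FPKM, but the immune-like cell 30 held 99.3% of the lineage- sum, and with the top cell of both groups left out the order turned, at 4.47 and 0.0737 FPKM. Ces1d, a carboxylesterase, was higher in mesothelial-like than in other lineage+ cells (377 against 28.9 FPKM, log2 ratio 3.66); cells 6 and 35 held 55.1% and 47.8% of the sums, and without them the means were 188 and 15.5 FPKM. Lpl had a mean of 121 FPKM in immune-like cells, against 3.19 in epithelial-like and 12.8 in lineage+ cells. Plin2, which coats lipid droplets, was detected in 4 of the 20 fibroblast-like cells with Lrat and in 4 of the 20 without.

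Of 17 measured genes of the retinol-retinal step 8 passed; 4 had a higher mean in lineage+ cells, none a lower one and 4 lay within 2-fold. Besides Adh1 these were Rdh14 (12.5 against 0.195 FPKM), Dhrs4 (17.9 against 0.381 FPKM) and Adh7. Cell 50 held 73.7% of the Rdh14 sum in lineage+ cells and cell 20 held 97.5% in lineage- cells, and without them the means were 3.37 and 0.00503 FPKM. For Dhrs4, found in 7 lineage+ and 2 lineage- cells, the means without the highest cell of each group were 12.1 and 0.122 FPKM. Within lineage+ cells 11 genes of the list passed, 2 higher in mesothelial-like cells, 5 lower and 4 within 2-fold. Adh7, a retinol-active alcohol dehydrogenase, was detected in 10 lineage+ cells, at most at 566 FPKM in the mesothelial-like cell 51, and was listed at 0 in all 34 lineage- cells. The list median was 1.83, and 0.16 without Adh7. Adh5, better known as a formaldehyde-oxidising enzyme, was detected in 12 cells of each group (log2 ratio -0.69); without cell 50 its lineage+ mean fell from 32.3 to 20.1 FPKM.

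Among 7 measured genes for retinoic acid synthesis 3 passed in the lineage comparison, and besides both members this was Aldh1a7, with a lower mean in lineage+ cells (1.13 against 27.6 FPKM, or 17.8 without lineage- cell 38, log2 ratio -3.75). The detected shares went the other way, 13 of 50 lineage+ (26%) and 7 of 34 lineage- cells (20.6%), with both medians at 0. The highest lineage- cells were 38, 17 and 1, at 351, 338 and 195 FPKM, and cell 17 is shallow. Aldh1a3, the third retinaldehyde dehydrogenase, reached 136 FPKM in the mesothelial-like cell 7 and 1.79 FPKM in cell 34 and was below threshold elsewhere. Of the 3 measured genes for removal of retinoic acid none passed in the lineage comparison, and Cyp26a1 and Cyp26c1 were at 0 in all kept cells. Cyp2s1 passed in the mesothelial-like comparison: it was detected in 3 of 10 mesothelial-like cells, with at most 35.2 FPKM in cell 7 and a mean of 7.65 FPKM, and was listed at 0 in the other 40 lineage+ cells. Of 4 receptor and cofactor genes reported 2 passed in the lineage comparison, both within 2-fold (log2 ratio -0.23 for Rxra and -0.09 for Nrip1); lineage- cell 6 held 94.4% of the Nrip1 sum there. Mesothelial-like over other lineage+ cells, Rxra was higher (2.08) and Nrip1 lower (-2.49), but each was detected in 1 mesothelial-like cell, and 98.8% of the Rxra sum lay in cell 54.

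Among 9 reported genes known to respond to retinoic acid 4 passed, 2 with a higher mean in lineage+ cells (Rarres2 and Lrat) and none with a lower one; 66.3% of the Rarres2 sum in lineage- cells lay in the mesothelial-like cell 15. Rarres2, which encodes chemerin, was detected in 47 lineage+ cells and had a mean of 3807 FPKM in mesothelial-like and 862 FPKM in fibroblast-like cells, a log2 ratio of 2.14. Of 9 reported stellate-cell genes known from liver 5 passed, and these 5 had a higher mean in lineage+ cells, but Lrat, Des, Pdgfrb and Lum passed through that group alone, so the count was largely set by the filter. Cygb, a globin of stellate cells, was detected in 41 lineage+ and 4 lineage- cells, and Reln and Hand2 passed in neither. Of the lipid-bearing fibroblast list 5 of 6 measured genes passed. Tcf21 (detected in 31 lineage+ and no lineage- cells) and Fgf10 (28 and 1) were higher in lineage+ cells. Lpl was lower, Fabp4 was listed at 0 in all lineage+ cells (23.5 FPKM in lineage-), and Plin2 lay within 2-fold. In immune-like cells the means of Lpl, Fabp4 and Plin2 were 121, 72.7 and 206 FPKM, against 3.19, 0 and 7.41 FPKM in epithelial-like cells. The lineage+ means of Lpl and Plin2 were 12.8 and 47.5 FPKM.

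**Figure D4:**
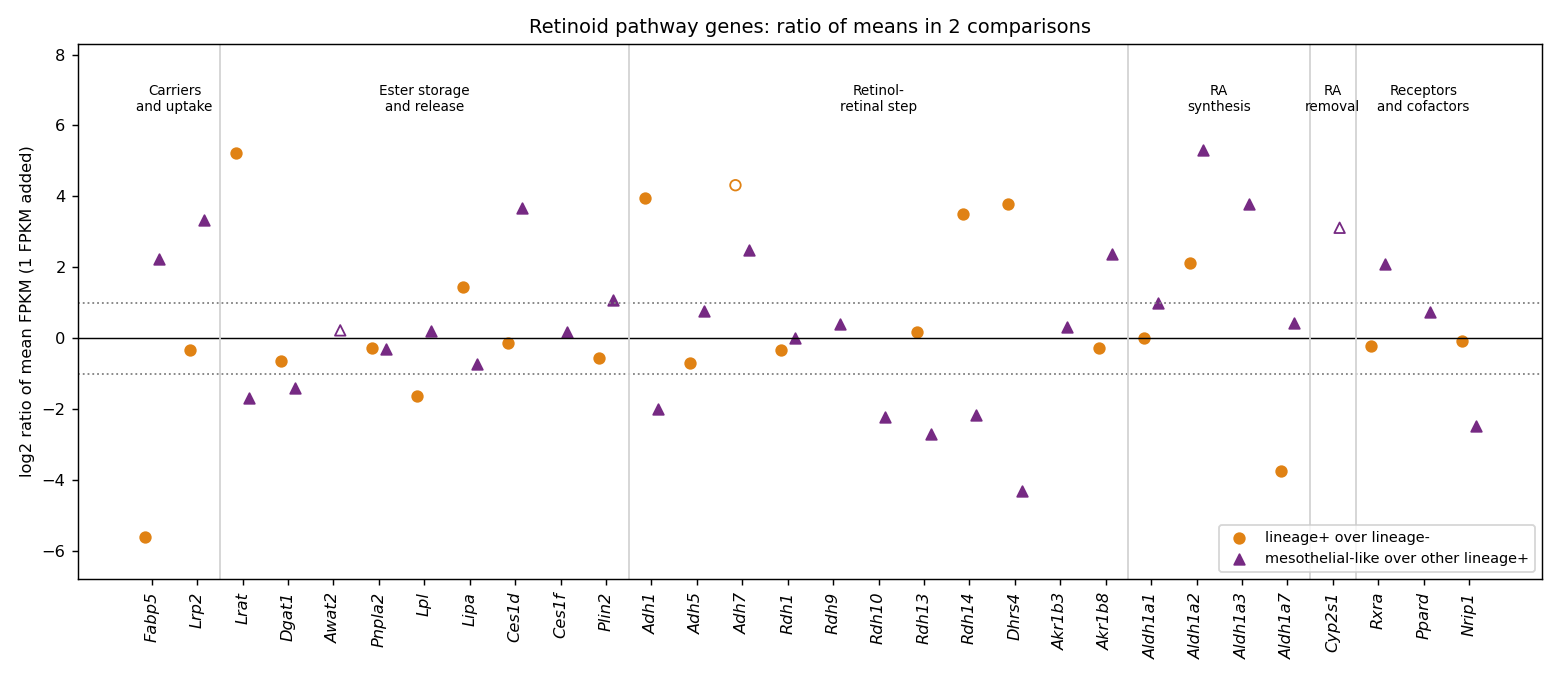
Log2 ratio of mean FPKM, with 1 FPKM added, for the retinoid pathway genes that passed the detection filter, lineage+ over lineage- (circles) and mesothelial-like over other lineage+ (triangles); dotted lines mark 2-fold, RA is retinoic acid, and hollow points have a mean of 0 in 1 group. Lrat and Adh1 lie high for lineage+ and low for mesothelial-like cells, and Aldh1a2 lies high in both, at 2.12 and 5.31.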

How the data were processed

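The authors deposited 1 table per group with FPKM per gene and cell; no label or header names the unit, which was read from the values. Tools listed in the submitters' processing notes are RSEM 1.2.20 and Bowtie 1.1.1, and builds are GRCm38 and mm9, in no stated order; member loci equal those of RefSeq on GRCm38 or overlap them, and starts are printed with 1 added. Per the labels' protocols, wells were inspected by eye to drop empty ones and those with doublets or debris, although 1 lineage- library is labelled debris; doublets were not called again. Of 23846 rows, 1830 held no values, 731 rows of 249 repeated symbols and 1 row whose symbol differs between tables were left out. No source used here says how reads shared by paralogs were divided.

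The 8 genes, the gene lists and the marker lists were chosen with earlier results of these data known; some genes of these lists are not reported here and are left out of list counts and medians. Library pairs with r above 0.9 on log2 of FPKM plus 1 were averaged, and cells with at least 1000 genes at 1 FPKM were kept. Levels are means over cells; log2 ratios add 1 FPKM to both means, which understates changes of low genes. Called means at least 2-fold among genes found in 10% or more of either set of cells. Shares have exact Clopper-Pearson 95% intervals over cells, and a count of 0 allows 3 counts of the total.

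Cells were clustered without the retinoid genes on log2 values after scaling each cell to 1000000 (scanpy 1.11.5, igraph 0.11.9: 2000 genes of highest variance, 15 components, 10 neighbours, Leiden at resolution 1, seed 0) and named from the marker lists, with at least 3 markers in 30% of a cluster's cells. The clustering was chosen after the classes had been seen, out of 8 that are compared here and an earlier version that was set aside; 6 of the 8 gave 10 mesothelial-like lineage+ cells and 2 gave 8. Depth was estimated from the steps of low values of 9976 genes with 1 transcript in GENCODE M21, by a method adjusted after looking at these cells, so depths are approximate. Scripts were tested on simulated data. Named genes are the members, the 5 genes of highest Spearman rho to each member found in at least 20% of lineage+ cells, and the extremes of each list; further genes of a list were named after their values had been seen. Other software was scipy 1.17.1, pandas 2.3.3 and numpy 2.4.6 under Python 3.11.15, with matplotlib 3.10.9 for figures.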

Additional observations from a re-analysis of the deposited data

How the results depend on the processing

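No paired analysis was possible because each group is 1 sample and the cells of both groups come from no common animal or chip that the labels name. A ratio counts as moved when it changed by more than 1.5-fold. The number of members at least 2-fold higher in lineage+ cells was 3 and lay between 2 and 4 under all 14 alternatives. The share of all genes called higher was taken only at the main setting (29.7%, and 27.4% in the mesothelial-like comparison). How steady these member counts are therefore supports nothing further. The Lrat log2 ratio, lineage+ over lineage-, was 5.21; it was 8.48 with 0.1 FPKM added, 2.21 with 10 FPKM added, 2.60 as a difference of mean log2 values and 7.22 with each cell scaled to a total of 1000000, and it moved by less under the other 8. The number of members at least 2-fold higher in mesothelial-like cells was 1 and became 2 as a difference of mean log2 values, with no filter on cells, with cells of at least 2000 genes, with all libraries counted separately, without the highest cell of each set, and with dispersion-ranked and scaled clustering (chosen after seeing the data), the second gene being Aldh1a1. The Aldh1a2 log2 ratio, mesothelial-like over other lineage+, was 5.31; it was 4.27 with 10 FPKM added, 6.78 as a difference of mean log2 values and 4.32 with the dispersion-ranked clustering. The direction changed for Aldh1a2, lineage+ over lineage-, with fibroblast-like lineage+ cells against lineage- cells of other classes. That value was -0.61, within 2-fold, and its lineage- mean came from cells 15 and 12 alone. For Rdh10, mesothelial-like over other, the direction changed as a difference of mean log2 values (0.15). It also changed with cells of at least 2000 genes (0.15), which leaves out cell 22 with its 1557 detected genes. The cause of the other changes was not tested. Aldh1a1, lineage+ over lineage-, ran from -0.69 against epithelial-like lineage- cells to 2.92. The share of lineage+ cells with Lrat ran from 38% at 10 FPKM to 58% at any value above 0. FPKM without counts limit what a low value can show, and 6 lineage- cells are shallow.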

Other observations

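These values were chosen after they had been seen. Cygb, the globin of stellate cells, had a highest value of 531 FPKM in the fibroblast-like cell 39, where Lrat was 0. Tgm2, a transglutaminase known to respond to retinoic acid, was detected in 8 of 10 mesothelial-like and 20 of 40 fibroblast-like lineage+ cells, with medians of 19.5 and 1.64 FPKM. Of 5 response genes that passed in this comparison, 3 had a higher mean in mesothelial-like cells (Rarres1, Rarres2 and Tgm2). The other 2 had a lower one, at log2 ratios of -1.70 (Lrat) and -1.66 (Hoxa5). Rarres1 was detected in cell 54 alone. Over all genes 27.4% were higher and 25.7% lower, so the list shows no common direction. Akr1b8, an aldo-keto reductase that can act on retinal, was detected in 7 of 10 mesothelial-like and 8 of 40 fibroblast-like cells, with means of 83.2 and 15.3 FPKM, or 54.9 and 7.74 FPKM without the highest cell of each.

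Of the 3 lineage- fibroblast-like cells, all had Adh1 and Aldh1a1, and none had Lrat or Tcf21. Their Adh1 values, 347 to 386 FPKM, lay close together. Their Aldh1a1 values, 5.93 to 21.8 FPKM, lay below the median of fibroblast-like lineage+ cells, 40.4 FPKM. They were still between the quartiles of that class, 0.273 and 128 FPKM. The lineage- mesothelial-like cell 15 lay within the range of the lineage+ mesothelial-like cells in Aldh1a2 (199 FPKM), Aldh1a1 (426 FPKM) and Rarres2 (5345 FPKM), and was at 0 for Lrat and Adh1, as were cells 6, 24 and 54 of the lineage+ class.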
